A study of Mus musculus with 2 samples.

Results

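Heat shock proteins and their DNAJ co-chaperones were read on arrays of mouse retinal pigment epithelium (RPE) grown in primary culture, a pigmented layer that lies behind the photoreceptors, with and without interferon gamma (IFNg), a cytokine of T cells and NK cells. The genes were taken by symbol, as those starting with Hspa, Hspb, Hspd, Hspe, Hsph, Hsp90, Dnaja, Dnajb or Dnajc together with the heat shock factors Hsf1 and Hsf2, and without Hspbap1 and Hspbp1. This rule found 71 of the 18193 genes named on the array, covered by 171 probe sets that each name 1 of these genes alone. Hsf1 and Hsp90ab1 were not analysed here, and Dnajc19 was covered only by probe sets that also name another gene. The untreated group was 1 culture grown for 14 days. The IFNg group was 1 culture grown in the same way and given IFNg at 100 U/ml for 24 h. Both were placed in serum-free medium overnight before RNA was taken, and how that night overlapped with the cytokine is not stated. No strain, genotype or age of the mice is given, nor whether animals were pooled.

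Heat shock proteins hold unfolded or misfolded proteins and help them reach their folded state. HSP70 proteins bind and release stretches of protein in an ATP cycle, DNAJ (HSP40) proteins bring them their clients and speed ATP hydrolysis, and HSP110 proteins exchange the nucleotide. HSP90 proteins act on later folding steps of kinases, receptors and other clients, small heat shock proteins hold unfolded proteins without ATP, and HSP60 with HSP10 folds proteins in mitochondria. In the cytosol the inducible members are transcribed by Hsf1 from heat shock elements, whereas chaperones of the endoplasmic reticulum (ER) are induced through ER stress elements bound by ATF6 with NF-Y. RPE cells engulf the tips of photoreceptors every day and carry a high load of folding and degradation. IFNg acts through the JAK-STAT pathway and raises antigen presentation, which uses ER chaperones to load peptides.

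Promoter sequence was examined first, since 3 ER chaperone genes whose log2 ratios are given below carry an ER stress element close to their start. Windows from 250 bases before to 50 bases after the start of transcription were taken from RefSeq (assembly GRCm38.p6), and 58 of the 71 genes had a window. Genes without one, among them Hsp90aa1, Hspa8, Hspa13 and Dnajc2, could not be searched for any of the elements below. The ER stress element was searched on both strands as CCAAT, 9 bases of any kind and CCACG. It was present in 39 of 32851 windows (0.119%), belonging to 37 of 27025 genes. Hspa5, which encodes the ER HSP70 BiP, is shown on the plus strand at chr2:34771840-34772139. Hsp90b1, which encodes the ER HSP90 GRP94, is shown on the minus strand at chr10:86705395-86705694 and holds the element in each orientation. Dnajc3, which encodes an ER J protein that restrains the eIF2alpha kinases, is shown on the plus strand at chr14:118937682-118937981. Capitals mark the element.
Hspa5: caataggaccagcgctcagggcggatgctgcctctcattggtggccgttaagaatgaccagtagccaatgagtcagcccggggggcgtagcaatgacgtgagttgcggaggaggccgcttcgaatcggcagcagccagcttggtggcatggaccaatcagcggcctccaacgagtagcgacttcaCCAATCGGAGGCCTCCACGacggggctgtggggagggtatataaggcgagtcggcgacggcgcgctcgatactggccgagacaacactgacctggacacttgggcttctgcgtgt
Hsp90b1: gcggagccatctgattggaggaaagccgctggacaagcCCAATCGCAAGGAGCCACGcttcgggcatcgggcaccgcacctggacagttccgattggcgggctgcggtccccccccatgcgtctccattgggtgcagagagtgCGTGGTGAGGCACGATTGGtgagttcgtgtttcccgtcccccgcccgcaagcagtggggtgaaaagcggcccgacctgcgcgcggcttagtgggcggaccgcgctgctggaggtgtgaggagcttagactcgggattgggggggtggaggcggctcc
Dnajc3: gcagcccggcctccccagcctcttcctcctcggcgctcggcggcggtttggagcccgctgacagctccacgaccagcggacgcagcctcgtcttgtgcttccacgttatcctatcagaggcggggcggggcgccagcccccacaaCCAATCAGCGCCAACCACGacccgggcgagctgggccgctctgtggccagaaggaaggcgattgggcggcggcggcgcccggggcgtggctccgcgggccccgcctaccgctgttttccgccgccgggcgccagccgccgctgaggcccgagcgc
The element of Hspa5 began 65 bases before the start, and that of Dnajc3 began 105 bases before it. Those of Hsp90b1 began 212 and 107 bases before it. A match of letters is a description and not a binding site. No other heat shock or DNAJ gene with a window held these letters in it.

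The heat shock element was searched as 3 alternating units, GAANNTTCNNGAA on either strand, and 198 of the 32851 windows held it (0.603%). Among the heat shock and DNAJ genes with a window, Hspd1, Hspe1, Hsph1 and Dnajb6 were the 4 with this match. Hspd1 and Hspe1, which encode the mitochondrial chaperonin HSP60 and its lid HSP10, are divergent neighbours, and their windows share 285 bases. The window of Hspd1 at chr1:55087883-55088182, minus strand, is shown because both genes have the run of units in capitals, made of overlapping matches on the opposite strands.
Hspd1: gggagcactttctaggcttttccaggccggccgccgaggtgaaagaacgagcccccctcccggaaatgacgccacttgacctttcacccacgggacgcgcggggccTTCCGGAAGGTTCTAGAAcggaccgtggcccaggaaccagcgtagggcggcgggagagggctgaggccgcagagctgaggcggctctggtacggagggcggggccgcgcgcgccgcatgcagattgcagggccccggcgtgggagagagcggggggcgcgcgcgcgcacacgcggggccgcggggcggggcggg
A shorter search for 2 units, GAANNTTC, matched 14 of the 58 genes, beside 9.04% of all genes with a window. Of the 14, Hspa1a and Hspa1b were higher with IFNg and Hspb6 was lower, while Dnajc5g, Dnajc27 and Hspb3 were at the floor defined below. Among all 715 genes above the floor with this match, 9.93% were higher and 3.64% lower. The other order of 2 units, TTCNNGAA, matched 6 of the 58 genes, beside 9.60% of all genes. Of the 6, only Dnajb4 passed 2-fold, and it was higher. Among all 860 genes above the floor with that match, 9.07% were higher and 3.26% lower. The Hspa1a window is given on the minus strand at chr17:34972107-34972406, with the match in capitals, because these genes are the classical heat-inducible HSP70 genes.
Hspa1a: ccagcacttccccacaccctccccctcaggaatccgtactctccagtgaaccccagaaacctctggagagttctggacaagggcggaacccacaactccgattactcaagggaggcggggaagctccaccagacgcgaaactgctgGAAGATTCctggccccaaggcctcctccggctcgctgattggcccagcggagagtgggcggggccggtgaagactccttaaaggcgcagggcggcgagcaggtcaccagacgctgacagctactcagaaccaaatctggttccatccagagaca
The windows of Hspa1a and Hspa1b differed at 4 of 300 bases. The interferon gamma activated site, searched as TTCNNNGAA, was present in 8.30% of all windows and in those of Dnajc7, Dnajc13 and Dnajc27. Of these, Dnajc13 was higher and Dnajc27 was at the floor. Among all 827 genes above the floor with the site, 9.79% were higher and 3.75% lower.

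Signals were read on a linear scale from 2 arrays, with medians of 20.1 (untreated) and 20.8 (IFNg) over 45101 probe sets. Values below 20.4, the pooled median, were set to this floor. A gene took the value of its brightest probe set, and higher or lower means past 2-fold with the brighter array above the floor. With 1 array a group there is no p-value or standard error, the number of arrays limits the precision, and these words describe 2 cultures. The only spread at hand was that between probe sets of 1 gene, an SD of 0.44 in log2 ratio over 4419 genes. The IFNg label was checked on 5 known targets, which were all higher. Irf1 read 319.1 untreated and 3391.1 with IFNg, Gbp2 read 260.8 and 11151, and Cd274, which encodes PD-L1, read 13.6 and 419.5. The cultures carried some RPE markers, with Otx2 at 410.9 and 388.5 and Tyr at 986 and 606, while Rpe65, Best1, Rgr, Dct and Cdh1 were at the floor on both arrays.

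Of the 71 genes, 60 were above the floor on 1 or both arrays. The signal was higher with IFNg for 11 (18.3%) and lower for 4 (6.67%), and 45 lay within 2-fold. Among all 12743 genes above the floor, 8.82% were higher and 4.48% lower. The median log2 ratio (IFNg over untreated) of the 60 genes was 0.17, that of all genes was -0.12, and the range was -1.25 to 1.55. None of the 60 passed 4-fold, and 1.37% of all genes did, a share near which 0 of 60 lies. At the level of probe sets, 22 of the 134 above the floor were higher (16.4%) and 6 lower (4.48%), beside 9.36% and 4.69% of all probe sets naming 1 gene. With a gene's value taken as the mean of all its probe sets, dim ones included, 2 were higher, Hsp90b1 and Hspa1a, and 1 was lower, Hspb6, beside 4.64% and 2.80% of all genes. With the mean over probe sets above the floor on both arrays, an alternative chosen after the data were seen, 7 were higher and 1 lower, beside 7.46% and 3.97%. Hspa1a and Hspb6 have 1 probe set each, so neither way of averaging could move them. The count of genes past 2-fold thus changed with how probe sets were joined, and the spread between probe sets is described further down.

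**Figure D1:**
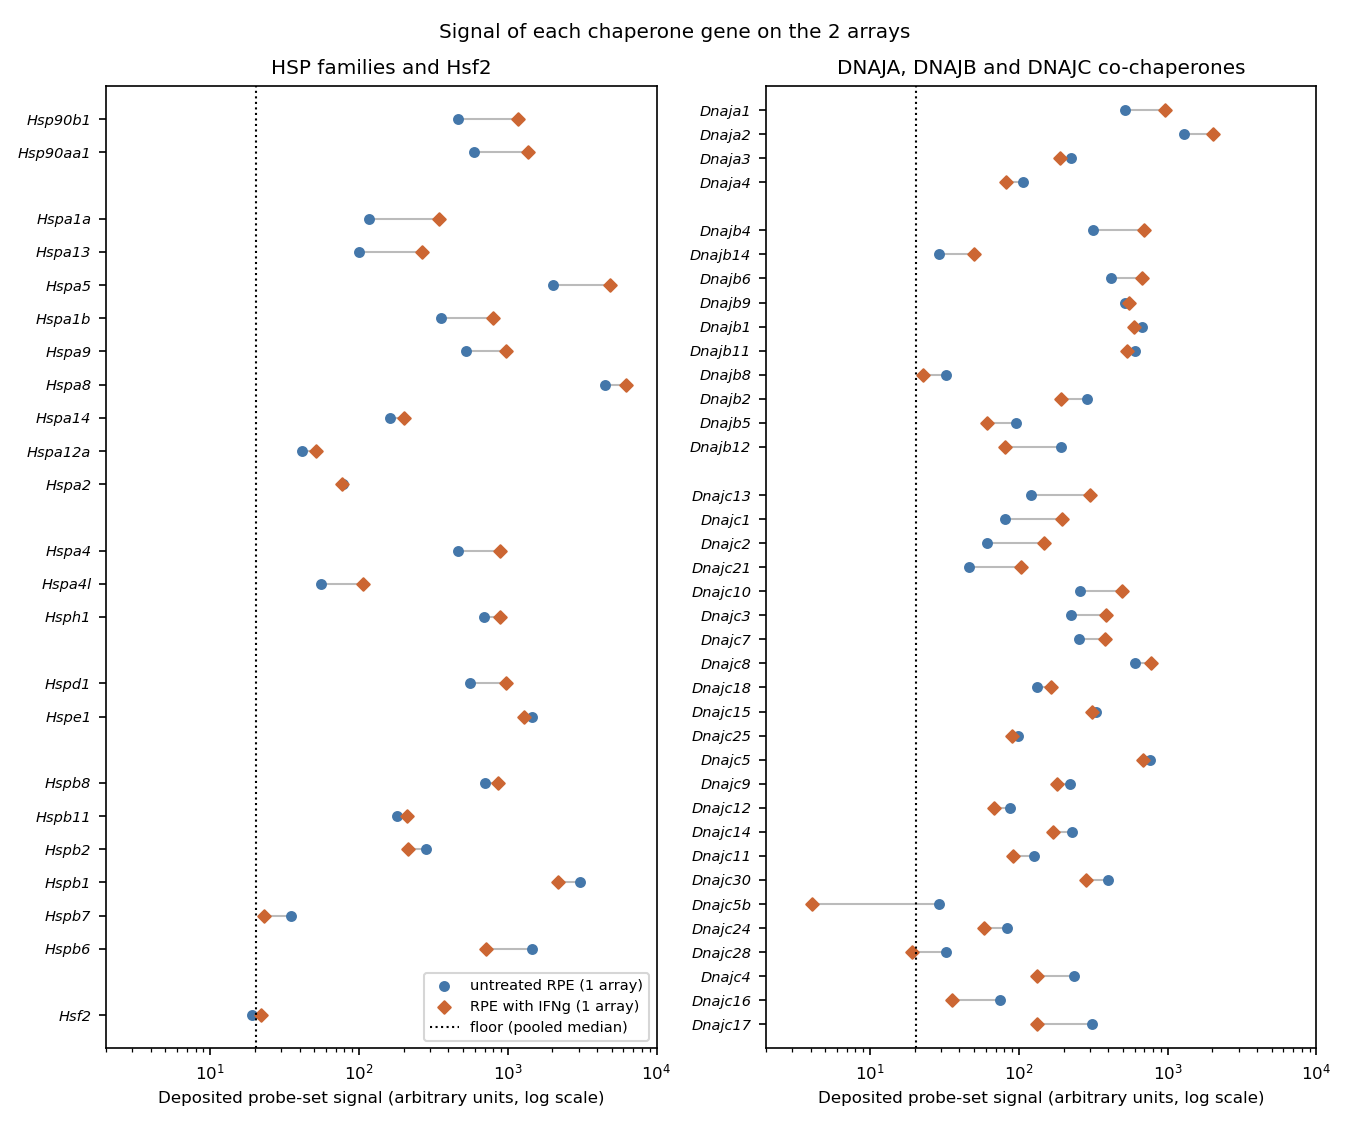
Signals of the 60 heat shock and DNAJ genes above the floor on the untreated and the IFNg array (log axis), 1 row per gene and 1 point per array. Blue circles are the untreated culture, orange diamonds the IFNg culture and the dotted line the floor of 20.4. There is 1 array per group, so no error is drawn, and Hspa5 at 2023.4 and 4855 and Hspb6 at 1468.1 and 711.9 show the 2 directions.

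Genes of ER chaperones had a median log2 ratio of 0.78 over 13 genes, with 9 of the 13 above 0, 4 higher (Hspa13, Hsp90b1, Hspa5 and Dnajc1) and 2 lower (Dnajb12 and Dnajc16). This median was 0.51 when probe sets were averaged in either way. It was 0.33 without probe sets whose IDs carry _s, _x or _a, where Hspa5 and Hsp90b1 had no value. Hspa5 read 2023.4 on the untreated and 4855 on the IFNg array, 2.40-fold higher (log2 ratio 1.26). Hsp90b1 read 466.3 and 1172.9, which is 2.51-fold higher (log2 ratio 1.33). The main HSP70 and the HSP90 of the ER were thus both brighter with IFNg. The other probe set of Hsp90b1 gave 330.6 and 742.9 (log2 ratio 1.17). Those of Hspa5 gave 959.2 and 1470.6 (0.62), and 134.4 and 129.1 (-0.06). Both probe sets of Hsp90b1 therefore passed 2-fold, whereas of the 3 for Hspa5 only the brightest did.

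Hspa13, an HSP70-related ATPase of microsomes, read 100.1 untreated and 267.1 with IFNg (log2 ratio 1.42). Its other probe sets above the floor on both arrays gave log2 ratios of 0.75 and 0.40. Dnajc1, an ER membrane J protein that binds ribosomes, read 81.5 and 195 (log2 ratio 1.26), and its further probe sets above the floor gave 1.54 and 0.84. For Hspa13 and Dnajc1, each probe set above the floor on both arrays had the brighter signal in the IFNg culture, at differing sizes.

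Dnajc10, a J protein with disulfide reductase activity that serves ER-associated degradation, read 258 and 493.1 (log2 ratio 0.93), just inside 2-fold. Its 3 probe sets lay close together, from 0.83 to 1.04. Dnajc3 read 223.4 and 388.4 (log2 ratio 0.80). Its probe sets spread widely, with 134.6 and 285.7 (1.09), 98.5 and 161.3 (0.71), and 55.4 and 160.3 (1.53), and a dim probe set at 23.8 and 23.1 (-0.04). Dnajb9 and Dnajb11, J proteins of the ER lumen that serve BiP, did not share these sizes. Dnajb9 read 514.5 and 554.7 (log2 ratio 0.11), and Dnajb11 read 602.8 and 534.1 (-0.17).

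Among J proteins of the ER membrane, Dnajb12, which works with cytosolic HSC70 on membrane proteins, read 192.8 untreated and 81 with IFNg, 2.38-fold lower (log2 ratio -1.25). Its other probe set read 78.7 and 54.5 (-0.53). Its relative Dnajb14 read 29.1 and 50 (log2 ratio 0.78), near the floor. The signals of these related genes lay on opposite sides of 0. Dnajc16 read 74.9 and 35.7 (log2 ratio -1.07), but its other probe set read 40.5 and 43.9 (0.12). Its direction therefore rests on the choice of probe set. The probe sets of Dnajc18 also disagreed, at 0.33, -0.15 and -0.92.

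**Figure D2:**
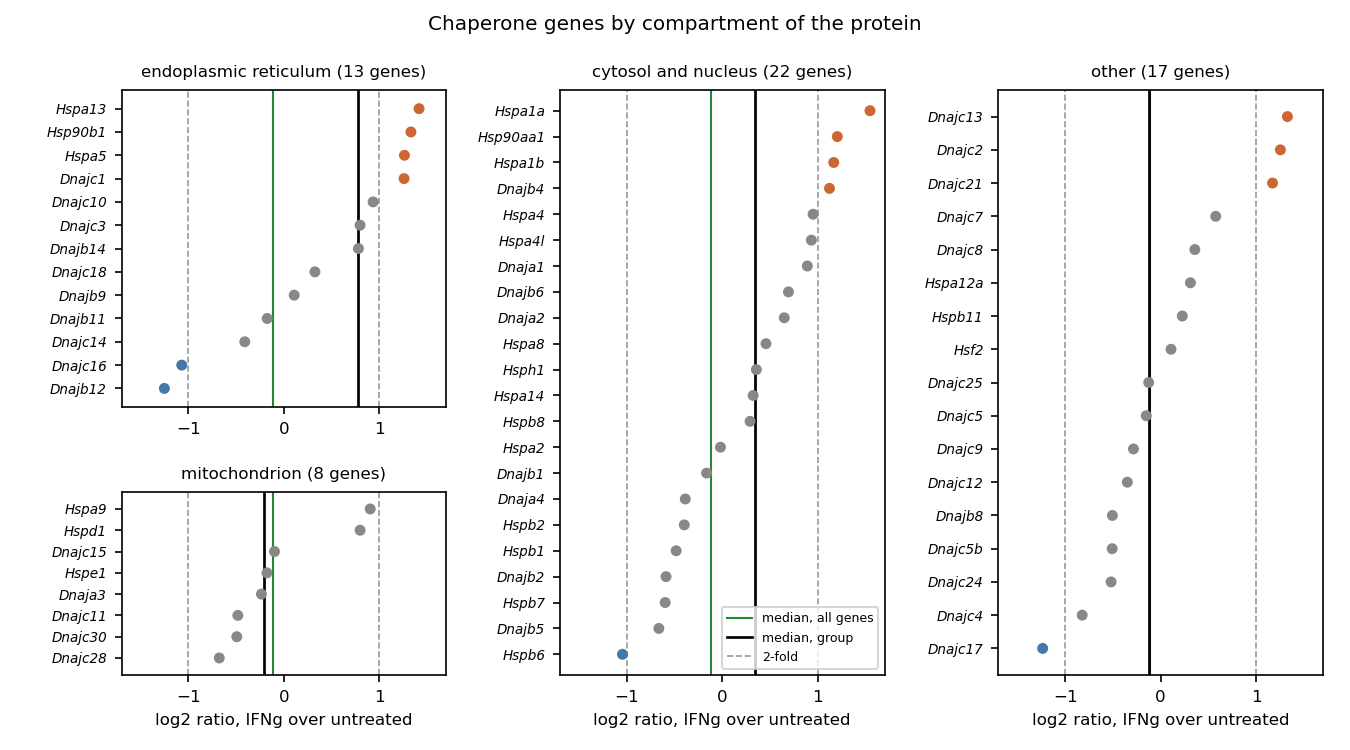
Log2 ratio of the IFNg over the untreated signal for each gene above the floor, in panels by the compartment of its protein, with 1 point per gene. The dashed lines mark 2-fold, the black line the median of the panel and the green line the median of all genes at -0.12. With the brightest probe set per gene, the ER panel has its median at 0.78 and the mitochondrial panel at -0.21.

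Genes of the pathway that lie outside the symbol rule were read from a list of ER stress sensors, transcription factors and targets. All 31 found on the array were above the floor, and 2 were higher and 0 lower, with a median log2 ratio of -0.14. Ero1a, the oxidase that regenerates disulfide isomerase, read 891.9 and 2114.2 (log2 ratio 1.24). Sec63, a J-domain protein of the translocon that recruits BiP, read 175 and 399 (log2 ratio 1.19). The remaining 29 lay within 2-fold. Xbp1, a transcription factor of the response, read 2167.1 and 1611.3 (log2 ratio -0.43). Hyou1, the nucleotide exchange factor of BiP, read 290.1 and 250 (-0.21). Ddit3, a pro-apoptotic factor induced by ER stress, read 469.1 and 720.1 (0.62), and Canx, the lectin chaperone calnexin, read 820.8 and 1390.3 (0.76). Values on this list thus stood on both sides of 0. Of all genes with an ER stress element in their window, 16 were above the floor, with a median of 0.13. Hspa5 and Hsp90b1 were the 2 higher (12.5%), and 0 were lower. Of the 10238 genes above the floor whose windows lack the element, 8.63% were higher, at a median of -0.12. The 6 genes on the list with the element ranged from -0.59 to 0.76, with a median of -0.21 and 0 higher.

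In the cytosol, Hsp90aa1, the inducible HSP90, read 594.7 untreated and 1370.8 with IFNg, 2.30-fold higher (log2 ratio 1.20). Its next probe sets read 534.8 and 1362.4 (1.35), and 255.5 and 708.6 (1.47). The 3 bright probe sets of this gene gave like ratios, and a dim one at 24.6 and 7 reached the floor on the IFNg array. Hspa1a, the inducible HSP70, read 117.9 and 344.5 on its only probe set, 2.92-fold higher (log2 ratio 1.55). Hspa1b read 354.4 and 796.1 (log2 ratio 1.17), and its further probe sets gave 1.09 and 0.55. Hspa1a and Hspa1b are near-identical copies, so which of them a probe set measured is uncertain.

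Hspa8, the constitutive HSC70, read 4542.3 and 6240 (log2 ratio 0.46), and its next probe set read 4838.2 and 4973.8 (0.04). Hspa2, an HSP70 best known from the testis, read 78.2 and 77.2 (log2 ratio -0.02). These lay within 2-fold, so the HSP70 genes did not share 1 value. Over the 9 HSP70 genes above the floor 4 were higher and 0 lower, with a median of 0.90 and 8 above 0. The 3 HSP110 genes lay within 2-fold with a median of 0.93. Hspa4 read 460.9 and 891.1 (log2 ratio 0.95), but its dimmer probe sets gave -0.41 and -0.48. Hspa4l read 55.5 and 106 (0.93), and Hsph1, also named HSP105, read 690.2 and 884.4 (0.36). All 3 HSP110 genes thus had the brighter signal on the IFNg array by their brightest probe set, and for Hspa4 the other probe sets went the opposite way.

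Most DNAJA and DNAJB proteins pair with cytosolic HSP70, although Dnaja3 serves mitochondria and Dnajb9, Dnajb11, Dnajb12 and Dnajb14 the ER. Dnajb4 read 317.2 untreated and 690.9 with IFNg (log2 ratio 1.12), and its second probe set above the floor read 98 and 194.1 (0.99). Dnaja1 read 516.5 and 957.8 (log2 ratio 0.89), with a range of 0.72 to 0.99 over its 3 probe sets. Dnajb1, the best known partner of inducible HSP70, read 670.2 and 598.4 (log2 ratio -0.16). Its second probe set gave -0.33. Within this group Dnajb1 thus lay near the median of all genes (-0.12) by its brightest probe set, while Dnajb4 was higher. Dnajb6, a suppressor of protein aggregation, read 414.1 and 669.5 (log2 ratio 0.69), with further probe sets from -0.38 to 0.37. Dnajb5 read 96.3 and 60.8 (log2 ratio -0.66), and its further probe sets gave -0.59 and -1.43. Dnaja4 read 107.6 and 82.3 (log2 ratio -0.39), with further probe sets at -1.01 and -0.82. Over the families, 0 of 4 DNAJA genes passed 2-fold in either direction, at a median of 0.21. Of 10 DNAJB genes 1 was higher, Dnajb4, and 1 lower, the ER gene Dnajb12, at a median of -0.17.

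Genes with an Hspb symbol, taken as the small heat shock family, had a median log2 ratio of -0.44 over 6 genes. Of these, 0 were higher and 1 was lower. Hspb6, also named HSP20 and known from muscle, read 1468.1 untreated and 711.9 with IFNg on its only probe set, 2.06-fold lower (log2 ratio -1.04). Under quantile normalization and under loess it lay within 2-fold. Hspb1, the actin-associated HSP27, read 3040.3 and 2176.5 (log2 ratio -0.48), and its second probe set gave -0.63. Hspb2, which neighbours the crystallin gene Cryab, read 282 and 214.1 (-0.40). Cryab itself, outside the symbol rule and counted with the cofactors below, read 1444.6 and 1355.8 (-0.09). Hspb8, which binds Bag3, read 701.5 and 858.5 (0.29). Hspb8 and Hspb11 were the 2 genes with an Hspb symbol and a ratio above 0.

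Cofactors of cytosolic HSP70 and HSP90 outside the symbol rule were read from a list of which 27 were found and above the floor, with a median of -0.10. Bag3, the exchange factor that pairs with Hspb8 in selective autophagy, read 639.1 and 282.6 (log2 ratio -1.18) and was the 1 lower gene. Cdc37l1, a co-chaperone of HSP90, read 72.7 and 191.2 (1.39) and was the 1 higher gene. The 3 further probe sets of Cdc37l1 above the floor on both arrays gave 0.48, 0.38 and -0.29, so this value rests on 1 probe set. Stip1, which links HSP70 to HSP90, read 472.5 and 507.5 (0.10). All 14 genes of the cytosolic chaperonin CCT and of prefoldin were within 2-fold, at a median of 0.09.

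Mitochondrial chaperone genes had a median log2 ratio of -0.21 over 8 genes, with 0 past 2-fold in either direction. Hspa9, the mitochondrial HSP70 mortalin, read 521.5 untreated and 976.1 with IFNg (log2 ratio 0.90). Its other probe sets above the floor on both arrays gave 1.31, 0.82 and -0.61. Hspd1 read 559.2 and 972.7 (log2 ratio 0.80), while its divergent neighbour Hspe1 read 1463.7 and 1294.9 (-0.18) and gave -0.02 on a second probe set. The ratio of Hspe1 thus lay near the median of all genes (-0.12), and that of Hspd1 lay above it. Hspa9 and Hspd1 were the 2 mitochondrial genes with a ratio above 0. Of 13 further genes of mitochondrial protein quality control, Yme1l1, an inner-membrane protease, was higher at 79 and 226.3 (log2 ratio 1.52). Spg7, a subunit of another inner-membrane protease, was 2.01-fold lower at 256.9 and 128.1, and the median of the list was -0.22. Spg7 lay within 2-fold under loess (-0.93), the pseudocount (-0.92) and the mean of all probe sets (-0.50).

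The DNAJC family holds J proteins of many places and tasks, and 4 of its 23 genes above the floor were higher and 2 lower, at a median of -0.15. Dnajc13, an endosomal J protein, read 120.5 untreated and 302.5 with IFNg (log2 ratio 1.33), but its dimmer probe set read 34.4 and 34.5 (0.00). Dnajc2, which joins Hspa14 in the ribosome-associated complex, read 61.6 and 146.9 (log2 ratio 1.25). Its second probe set read 20.4 and 41.7, with the untreated value at the floor. Hspa14, its partner, read 161.7 and 202.4 (0.32). Dnajc21, a factor of ribosome biogenesis, read 46.2 and 104.1 (log2 ratio 1.17), and its second probe set read 23.8 and 53.1 (1.16). The pair of probe sets of Dnajc21 gave like ratios at low signal.

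Dnajc17, a nuclear J protein linked to splicing, read 311.4 untreated and 132.3 with IFNg (log2 ratio -1.24), whereas its dim second probe set read 27.7 and 24.5 (-0.18). Dnajc4 read 235.7 and 133.4 (log2 ratio -0.82). Dnajc7, which binds both HSP70 and HSP90, read 253.7 and 378.5 (0.58), and Dnajc5, the cysteine string protein of secretory vesicles, read 761.1 and 685.8 (-0.15). DNAJC genes thus ranged from more than 2-fold lower to more than 2-fold higher. Of the heat shock factors in the symbol rule, Hsf2 read 19.2 and 22, which is at the floor on the untreated array and close to it on the other. Hsf4, a heat shock factor known from the lens and on the list of cytosolic cofactors, read 50.5 and 42.7 (-0.24). The 4 genes with a heat shock element of 3 units were Dnajb6, Hspd1, Hspe1 and Hsph1, all within 2-fold as given above. Of all 59 genes above the floor with that match, 4 were higher (6.78%), beside 8.65% of the 10195 without it.

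The 11 genes at the floor on both arrays were Dnajb3, Dnajb7, Dnajb13, Dnajc5g, Dnajc6, Dnajc22, Dnajc27, Hspa1l, Hspa12b, Hspb3 and Hspb9. They give no ratio at this brightness. Dnajc5b and Dnajc28 reached the floor on the IFNg array alone.

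**Figure D3:**
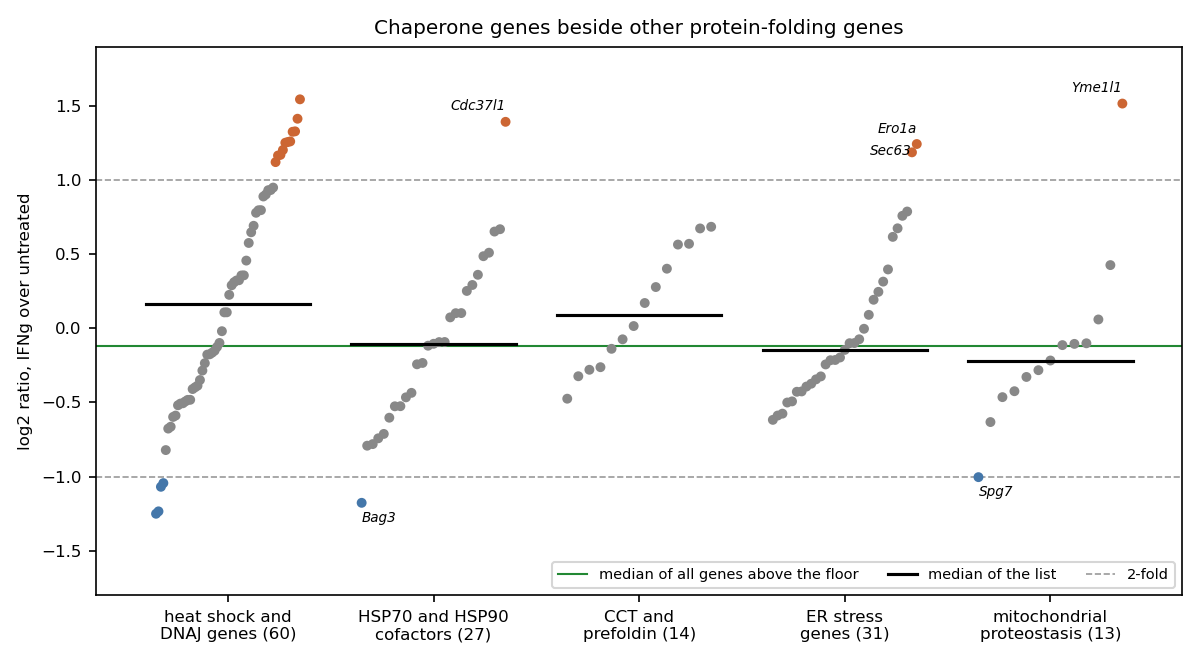
Log2 ratio of the IFNg over the untreated signal for the 60 heat shock and DNAJ genes and for 4 lists of folding genes outside the symbol rule, in a column per list with 1 point per gene and a bar at the median. In the 4 lists, points past the dashed 2-fold lines are named, among them Ero1a at 1.24 and Bag3 at -1.18, and the medians lie between -0.22 and 0.09. The green line is the median of all genes at -0.12.

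Agreement between probe sets of 1 gene was the only check on these ratios that the arrays allowed. Of the 11 higher genes, 9 had further probe sets above the floor on both arrays. Of these 14 probe sets, 13 had a ratio above 0, 6 passed 2-fold in the same direction, and the median log2 ratio was 0.91. Of the 4 lower genes, 3 had 1 further probe set each, of which 2 had a ratio below 0 and 0 passed 2-fold, with a median of -0.18. In both directions most other probe sets thus shared the sign of the probe set taken, and most lay nearer to 0 than it did. Over all heat shock and DNAJ genes, 10 had probe sets more than 1 log2 unit apart, namely Dnajb6, Dnajc3, Dnajc13, Dnajc16, Dnajc17, Dnajc18, Hspa4, Hspa5, Hspa9 and Hspa13. Probe sets of a gene share the labelled RNA of the culture, so they do not stand for replicate cultures.

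**Figure D4:**
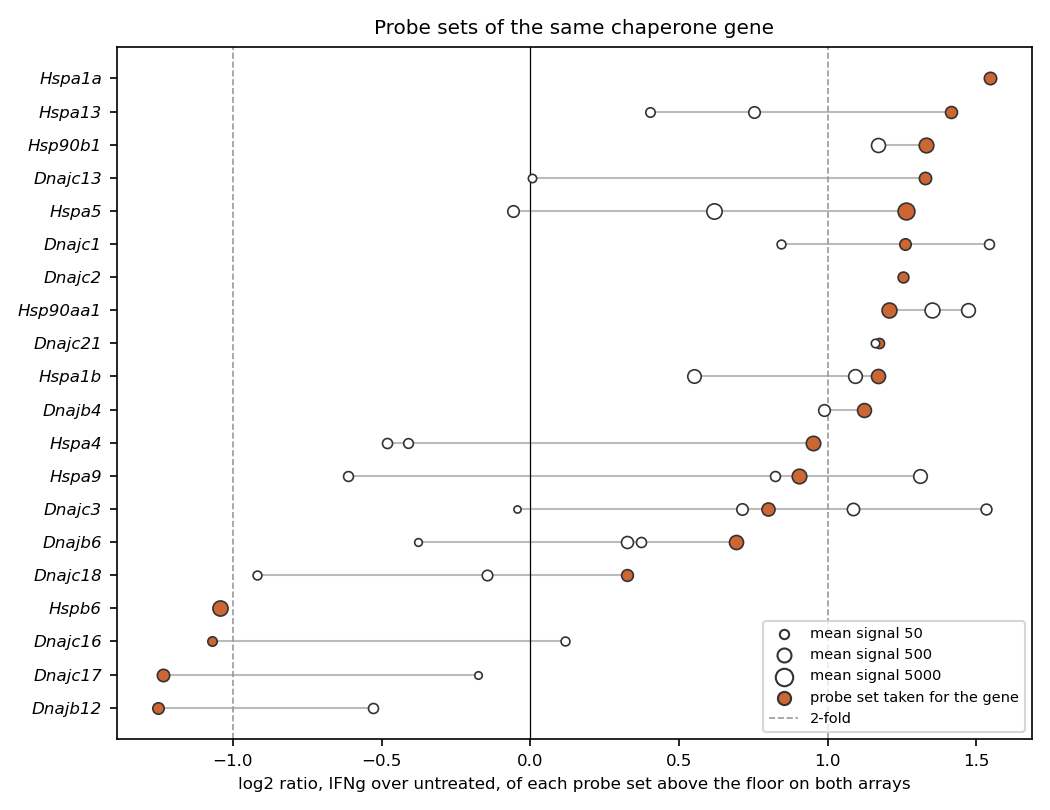
Log2 ratio of every probe set above the floor on both arrays, in rows for the genes past 2-fold and the genes whose probe sets differ by more than 1 log2 unit. The filled point is the probe set from which the gene took its value, and larger points have a brighter mean signal. The 3 bright probe sets of Hsp90aa1 lie between 1.20 and 1.47, while those of Hspa9 run from -0.61 to 1.31.

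Markers of other cells were read in the same cultures. The shares of all genes above the floor were 8.82% higher and 4.48% lower. All 10 fibroblast markers were above the floor and within 2-fold, and their summed signal was 63219 untreated and 57697 with IFNg. Of 9 leukocyte markers, 6 were above the floor, 0 were higher and 3 were lower, namely Csf1r, Fcer1g and Laptm5. The summed signal of the 9 was 516.3 and 257.1. Csf1r read 202.8 and 77.5, Cd68 read 139.6 and 87.6, Adgre1 read 51.3 and 44.8, and Ptprc read 20.8 and 7. Of the 13 RPE markers above the floor 0 were higher and 5 lower, namely Rdh5, Rlbp1, Slc45a2, Ttr and Tyrp1. Their median log2 ratio was -0.70, with 9 below 0 and 4 above it. The summed signal of all 18 RPE markers was 5630 and 5107. Krt18, 1 of the 4 above 0, made up 1390.4 and 2445.9 of it. Of 7 photoreceptor and neuron markers, 2 were above the floor and 1 of them, Tubb3, was higher, with summed signals of 79.6 and 237.5. Of 5 endothelial markers, 4 were above the floor, 0 were higher and 0 lower, with summed signals of 135.3 and 86.5. The part of these other cells in the chaperone ratios was not tested. In such bulk cultures, fewer cells of a type and less RNA per cell cannot be told apart.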

How the data were processed

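Amplified, biotin-labelled RNA of 2 mouse RPE cultures was read on 1 Affymetrix array each, per the labels' protocols. The authors deposited a linear signal intensity per probe set, and each array has a trimmed mean of 100. How the signals were summarised, background-corrected and called as detected is not given in the sources used here. How much background a dim signal holds is unknown. The genes and lists were chosen with earlier results of these data known.

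Control probe sets (64) were left out of 45101. Each array was scaled to a common mean after trimming 2% at each end (factors 1.00008 and 0.999924), the pooled median served as a floor, and ratios were taken on the log2 scale. Gene names came from the platform annotation, in which 34945 probe sets name 1 gene, 932 several and 9160 none. Of those naming 1 gene, 99.4% had an Entrez identifier in the RefSeq table of GRCm38.p6, and 0 symbols changed. Genes took the brightest probe set, by mean log2 signal, that names them alone. Named genes were those past 2-fold, those with discordant probe sets, the brightest and the next largest ratios of a family, and list members past 2-fold. Some members within 2-fold were also named. Promoters came from RefSeq.

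Alternatives were unscaled values, a common 75th percentile, quantile normalization, loess, floors at the 25th and 75th percentiles and a pseudocount of 16. Others were both ways of averaging probe sets, removal of probe sets whose IDs carry _s, _x or _a, and thresholds of 1.5-fold and 3-fold. Whether probe sets with these suffixes also read other genes was not examined. The procedure was tested on simulated arrays. Known changes were given there only to genes well above the floor, alike for all probe sets of a gene. That test therefore does not cover dim genes or probe sets that disagree. Python 3.11.15 was used with matplotlib 3.10.9, statsmodels 0.14.6, scipy 1.17.1, pandas 2.3.3 and numpy 2.4.6.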

Additional observations from a re-analysis of the deposited data

How the results depend on the processing

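No paired analysis was possible because each group holds 1 array, and for the same reason no replicate could be left out. Ratios of the 60 genes above the floor and of the 6 list genes past 2-fold were recomputed, and other list genes were not. Of 641 such values, 612 moved by less than the SD between probe sets of 1 gene, 29 moved further, and 0 turned from past 2-fold to the opposite sign. Many of these values could hardly move. The scaling factors were close to 1, a changed floor leaves bright genes as they were, and averaging leaves a gene with 1 probe set unchanged. The count of 612 is therefore no measure of how stable the ratios are. The 11 higher genes all stayed higher under unscaled values, a common 75th percentile, quantile normalization, loess and the lower floor. These settings gave 11 to 15 higher and 3 to 6 lower, beside 7.61% to 13.63% and 4.37% to 12.43% of all genes. At the lower floor, 12 of 70 were higher and 6 lower, beside 13.63% and 12.43%, the largest of these shares. Loess added Dnaja1, Dnajc10, Hspa4 and Hspa9 to the higher genes, giving 15 of 60 beside 9.37% of all genes. The higher floor left 9 of 50 higher and 3 lower, beside 7.392% and 2.099% of all genes. Dnajc2, Dnajc16 and Dnajc21 were no longer past 2-fold at that floor. The pseudocount gave 10 of 60 higher and 4 lower, beside 8.116% and 5.001% of all genes. With it Dnajc5b was newly lower, and Dnajc16 and Dnajc21 lay within 2-fold. Averaging all probe sets left 2 higher and 1 lower, and averaging those above the floor on both arrays, chosen after the data were seen, left 7 and 1. Without probe sets whose IDs carry _s, _x or _a, 8 of 52 were higher, with Dnajc10 newly among them, and 4 lower. The shares of all genes in that setting were 9.25% and 4.47%. All probe sets of Hspa5 and Hsp90b1 carry such IDs, so these genes had no value left, Dnajc2 had none above the floor, and Hspa1b lay within 2-fold. The median of the remaining ER genes was 0.33, and it was 0.51 under both ways of averaging. Thresholds of 1.5-fold and 3-fold gave 21 higher and 9 lower, and 0 and 0, beside 17.95% and 18.66%, and 2.64% and 0.463%, of all genes. The median of the genes above each setting's floor ranged from -0.00 to 0.29. Dim signals limit Dnajc5b, whose log2 ratio was -0.51, but -2.32 with the lower floor and -1.16 with the pseudocount.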

Other observations

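Dnajc19, which encodes a J protein of the mitochondrial import motor, had 3 probe sets, each also naming the pseudogene Dnajc19-ps, so the reading cannot be given to either. The brightest read 207 untreated and 268.7 with IFNg (log2 ratio 0.38). The next read 28.4 and 18.9, a log2 ratio of -0.48 with the IFNg value at the floor, and the last was at the floor on both arrays.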
